A study of Mus musculus with 4 samples.

Results

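Collagen genes of the mouse lumbar spinal cord are described here, taken as every gene in the RNA-seq table whose symbol is Col, a number, a and a number (Col1a1, Col4a2 and so on). There were 41 such genes of 18674 gene names (46 of 23750 rows), and a gene with several rows was given the mean of its rows. RNA was measured in 4 libraries, with vehicle and SD each given to WT and to G93A mice and 1 library made per condition. WT mice were the wild type controls, G93A mice carry a mutant human SOD1 transgene and are a model of amyotrophic lateral sclerosis (ALS), and SD is spermidine, a polyamine. The ALS mice came from the high-expresser strain G93A H1, bred with females of the background B6/SJLF1, and the treatment groups were of males only. Per the labels, SD or PBS was given 4 times a week for 30 days, and the RNA sequencing methods place tissue collection at 100 days of age. The dose of 5 mg/kg and saline as the vehicle come from a general dosing section with a longer schedule, so the dose behind these libraries is uncertain. How many animals stand behind a library is not given, and with 1 library per condition no difference has a replicate check, so the differences are given without a test or a p-value.

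Collagens are proteins of the extracellular matrix in which chains wind around each other into a triple helix. The fibril-forming collagens build the cables of connective tissue, FACIT collagens sit on the surface of such fibrils, type IV collagens form the sheet-like network of basement membranes, type VI collagens form beaded filaments, and transmembrane collagens span the cell membrane. In the healthy spinal cord collagen is found mainly in the meninges and in the walls of blood vessels, and after injury it is one of the components of scar tissue.

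Values are RPKM, the reads on a transcript divided by its length and by the size of the library, so that genes can be compared with each other per length. The libraries were of similar depth, each estimated at 36800000 to 38600000 read pairs. Where a pair of levels is given for a genotype, the vehicle library comes first and the SD library second, and a pair of log2 fold changes between genotypes likewise gives vehicle first. Among the libraries, rows listed at 0 numbered between 892 and 1198. A log2 fold change has a pseudocount of 0.1 RPKM added to both values, which understates the change of low genes. A gene is called higher or lower where it differed at least 1.5-fold on that scale, and "rose" or "fell" is used only of such a gene. Level differences between libraries of bulk tissue cannot tell a change in the number of cells of a type from a change in the RNA per cell.

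Collagen mRNA was sparse in this tissue. A mean of at least 1 RPKM over the 4 libraries was found for 20 of the 41 genes, with a median of 403.1 estimated read pairs behind a gene. Another 14 genes had a mean from 0.106 to 0.978 RPKM, with a median of 93.1 estimated read pairs. The remaining 7 genes (Col4a3, Col4a4, Col6a4, Col6a6, Col10a1, Col17a1 and Col28a1) had means from 0.0220 to 0.0771 RPKM and a median of 18.8 estimated read pairs, and single differences among them rest on few reads. Averaged over the 4 libraries, Col16a1 had the highest level, 6.44 RPKM, followed by Col23a1 at 5.27, Col11a2 at 4.35 and Col1a2 at 4.10 RPKM. The order depends on genotype: Col16a1 ran from 2.0 to 11.1 RPKM and was the highest in both G93A libraries, while Col11a2 was the highest in both WT libraries. The ranges of the others overlap, since Col23a1 ran from 4.17 to 7.69 RPKM, Col11a2 from 3.80 to 4.92 and Col1a2 from 3.0 to 5.15. The classical skin and tendon collagen Col3a1 stayed low, at 0.404 and 0.445 RPKM in WT and 0.425 and 0.480 RPKM in G93A. Summed over the 41 genes, the level was 45.5 and 40.5 RPKM in WT and 69.4 and 77.3 RPKM in G93A.

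**Figure D1:**
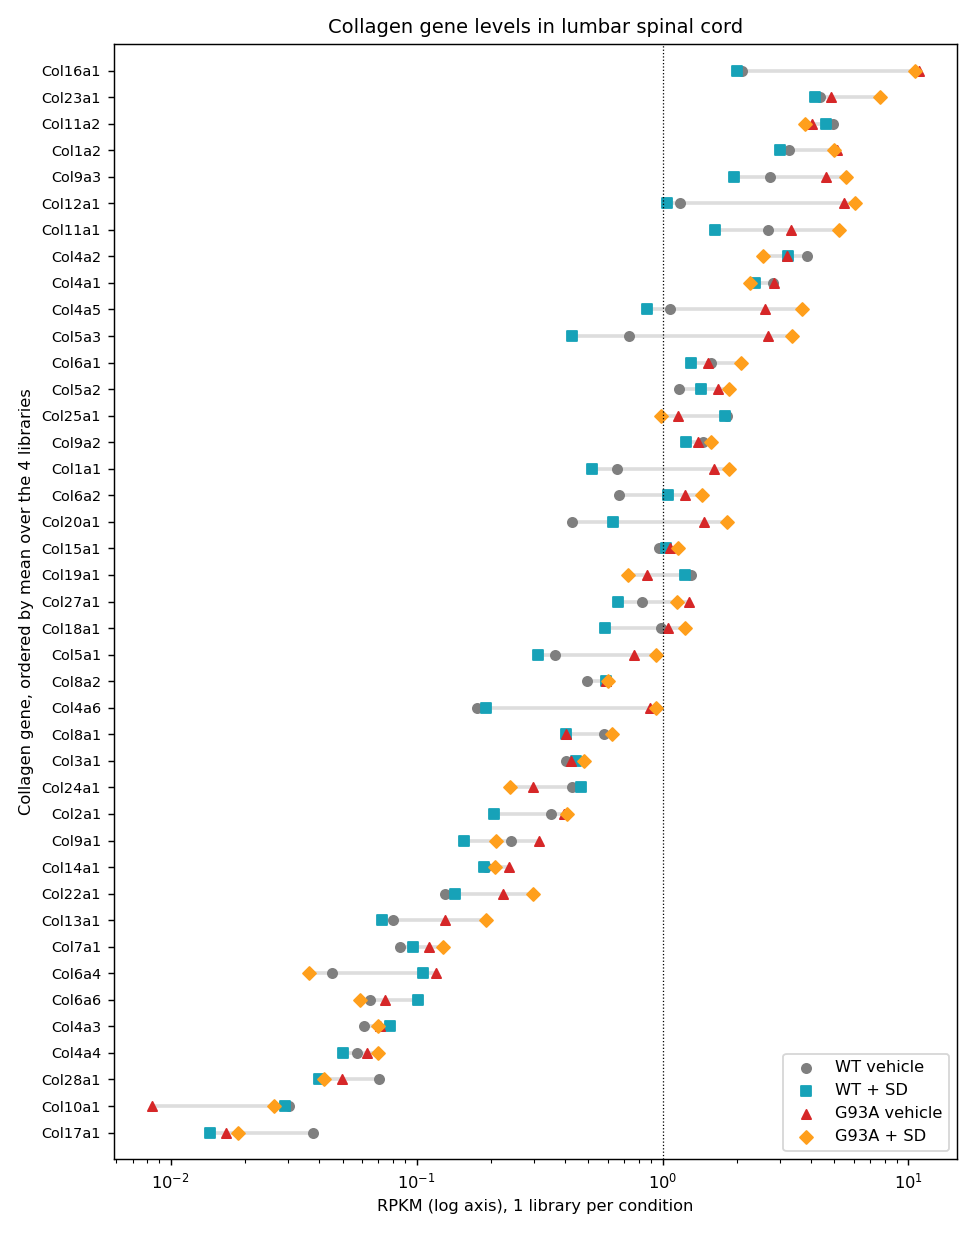
Level of each of the 41 collagen genes (rows, ordered by their mean) in RPKM on a log axis, with 1 point per library (grey circle WT vehicle, blue square WT + SD, red triangle G93A vehicle, orange diamond G93A + SD) and a grey line over their range. The 20 genes at 1 RPKM or more (dotted line at 1 RPKM) include Col16a1, Col12a1, Col5a3, Col4a5 and Col1a1, whose G93A points lie to the right of their WT points.

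The comparison of genotypes asks which collagen genes differ between G93A and WT cord, first under vehicle and then under SD. These comparisons share no library. In G93A vehicle 12 of the 41 genes were higher than in WT vehicle, against 14.4% of all gene names. Only Col25a1 was lower, against 5.31% of all gene names. Under SD 18 genes were higher in G93A, against 17.1% of all gene names. Lower under SD were 4 genes (Col6a4, Col19a1, Col24a1 and Col25a1), against 7.82% of all gene names. Both comparisons called the same 10 genes higher: Col1a1, Col1a2, Col4a5, Col4a6, Col5a1, Col5a3, Col9a3, Col12a1, Col16a1 and Col20a1. That is 24.4% of the collagen genes, where 11.6% of all gene names were higher in both. Col25a1 was the 1 collagen gene lower in both, where 2.98% of all gene names were. Of the 20 collagen genes at 1 RPKM or more, 8 were higher in both, against 11.7% of all gene names at that level, and 1 was lower in both, against 3.29%. At that level 9 were higher and 1 lower under vehicle, against 13.1% and 4.34% of all gene names, and 11 were higher and 2 lower under SD, against 15.8% and 7.85%.

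For these 20 genes the median log2 fold change was 0.39 under vehicle and 0.67 under SD, and for all 12987 gene names at that level it was 0.05 and 0.05. In 24 of the 41 genes both G93A libraries lay above both WT libraries, which held for 39.7% of all gene names. The opposite order was found for 6 genes (Col4a2, Col10a1, Col11a2, Col19a1, Col24a1 and Col25a1), and it held for 28% of all gene names. Of the 10 genes higher in both comparisons, 7 reached 2-fold under vehicle, namely Col1a1, Col4a5, Col4a6, Col5a3, Col12a1, Col16a1 and Col20a1.

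**Figure D2:**
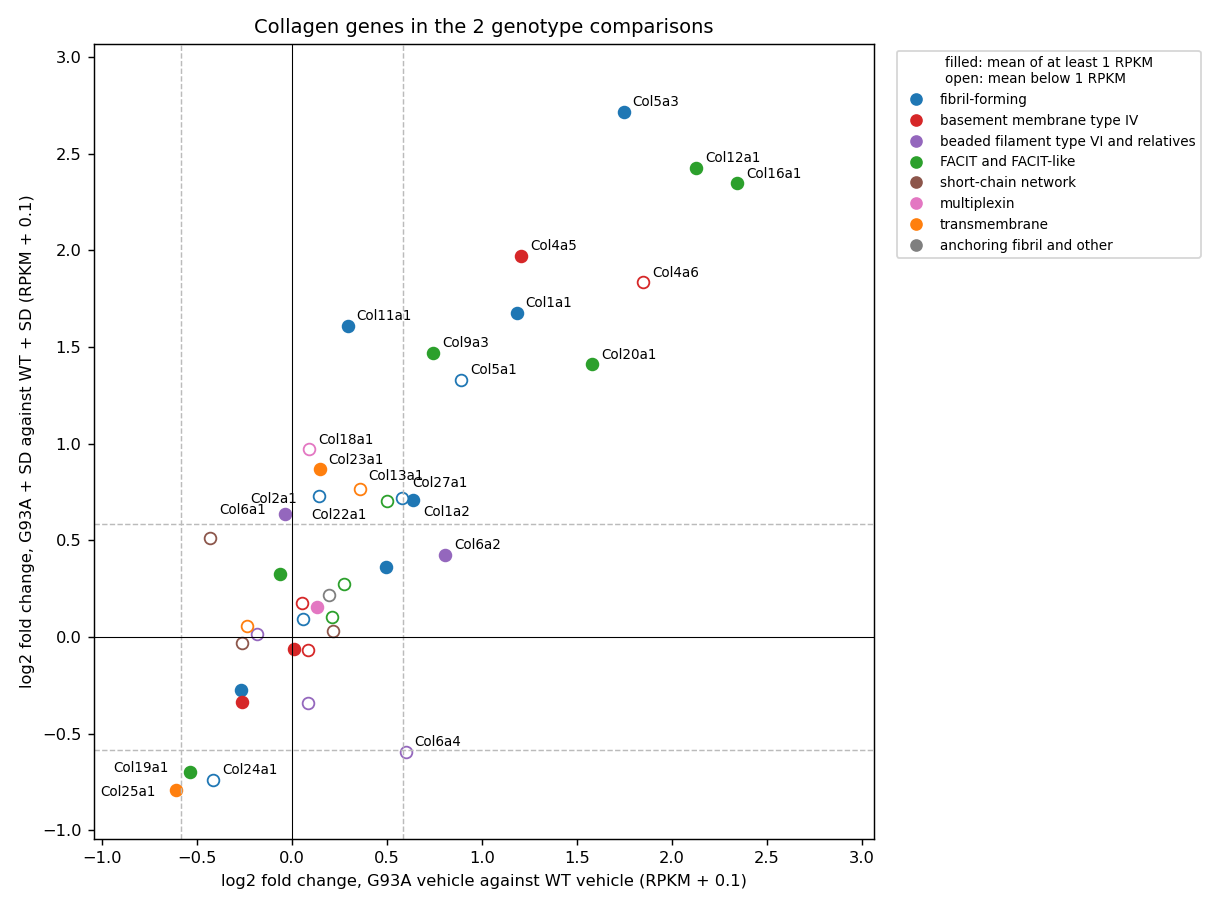
Log2 fold change of the 41 collagen genes in G93A vehicle against WT vehicle (x axis) and in G93A + SD against WT + SD (y axis), coloured by class, filled for a mean of at least 1 RPKM and open below it; dashed lines mark 1.5-fold. Col16a1 (2.34 and 2.35), Col12a1 (2.13 and 2.43) and Col5a3 (1.75 and 2.72) lie farthest to the upper right, and Col25a1 (-0.61 and -0.79) lies beyond both lines at the lower left.

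FACIT and FACIT-like collagens held 4 of the 10 higher genes, out of 9 listed. Col16a1, whose chain is found in several tissues next to fibrils and basement membranes, had 2.10 and 2.0 RPKM in WT and 11.1 and 10.6 RPKM in G93A. Both G93A libraries were far above both WT libraries, and the SD library was close to the vehicle library in each genotype (log2 fold change -0.06 and -0.06). The rise was 5.07-fold under vehicle and 5.09-fold under SD. Col12a1, whose product lies on type I collagen fibrils in tendon, muscle and healing tissue, had 1.17 and 1.05 RPKM in WT and 5.47 and 6.06 RPKM in G93A. It rose 4.37-fold and 5.38-fold, and no transcript length was matched to it, so that its reads could not be estimated. Col20a1, a FACIT-like gene, had 0.429 and 0.628 RPKM in WT and 1.48 and 1.84 RPKM in G93A. Its log2 fold changes were 1.58 and 1.41, again with no overlap between the genotypes. Col9a3, which encodes a chain of the cartilage collagen IX, had 2.73 and 1.95 RPKM in WT and 4.64 and 5.57 RPKM in G93A (log2 fold changes 0.74 and 1.47). Its partner chain Col9a2 was not called, with 1.46 and 1.24 RPKM in WT and 1.39 and 1.58 RPKM in G93A. The third chain, Col9a1, was lower than both, between 0.157 and 0.313 RPKM. Col14a1 ran from 0.188 to 0.237 RPKM and Col22a1 from 0.130 to 0.297 RPKM, of which only Col22a1 under SD was called higher (log2 fold change 0.70).

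Col19a1 went the other way. This FACIT-like gene, known from muscle and from some neurons, had 1.31 and 1.24 RPKM in WT and 0.867 and 0.724 RPKM in G93A. Both G93A libraries were below both WT libraries, with a log2 fold change of -0.54 under vehicle, short of 1.5-fold, and -0.70 under SD, past it. Without a pseudocount and with median-ratio scaling the vehicle comparison was past 1.5-fold as well (-0.59 and -0.60), and with a pseudocount of 1 RPKM the SD comparison was not (-0.38).

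Among the 11 fibril-forming collagens 4 rose in both comparisons. Col5a3, the third chain of the collagen V group that takes part in setting fibril size, had 0.729 and 0.428 RPKM in WT and 2.68 and 3.38 RPKM in G93A. It rose 3.35-fold under vehicle and 6.58-fold under SD, and the lower value of WT + SD enters the second of these. Col5a1, the main collagen V chain, had 0.367 and 0.313 RPKM in WT and 0.765 and 0.939 RPKM in G93A (log2 fold changes 0.89 and 1.33), and with a pseudocount of 1 RPKM it was called in neither comparison (0.37 and 0.56). Its partner Col5a2 was higher in both G93A libraries than in both WT libraries but was not called, at 1.17 and 1.43 RPKM in WT and 1.69 and 1.87 RPKM in G93A (log2 fold changes 0.49 and 0.36).

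Both chains of collagen I, the main collagen of bone, skin and scar, were higher in G93A. Col1a1 had 0.656 and 0.516 RPKM in WT and 1.62 and 1.87 RPKM in G93A, and rose 2.27-fold and 3.20-fold. Col1a2 started from a higher level, with 3.28 and 3.0 RPKM in WT and 5.15 and 4.98 RPKM in G93A, and rose 1.55-fold and 1.64-fold. The call of Col1a2 lies near the threshold: its log2 fold change under vehicle was 0.64, and it fell short of 1.5-fold with median-ratio scaling (0.57) and with a pseudocount of 1 RPKM (0.52). In each library Col1a2 was above Col1a1 per length.

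Collagen XI, which sits in the core of cartilage fibrils, was divided. Col11a2 had 4.92 and 4.61 RPKM in WT and 4.06 and 3.80 RPKM in G93A, lower in both G93A libraries without being called (log2 fold changes -0.27 and -0.27). Col11a1 had 2.70 and 1.64 RPKM in WT and 3.32 and 5.22 RPKM in G93A. Its log2 fold change between genotypes was 0.29 under vehicle and 1.61 under SD, so that it was called only under SD. The other fibril-forming genes had means below 1 RPKM. Of these, Col2a1 and Col27a1 were called higher and Col24a1 lower under SD alone, with log2 fold changes of 0.73, 0.72 and -0.74, and Col27a1 was just short of 1.5-fold under vehicle (0.58).

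The 6 type IV collagen genes lie as head-to-head pairs in the genome, each pair starting near one point and read in opposite directions. The pair Col4a5 and Col4a6 rose and the pair Col4a1 and Col4a2 did not. Col4a5 had 1.08 and 0.864 RPKM in WT and 2.61 and 3.68 RPKM in G93A (log2 fold changes 1.20 and 1.97). Col4a6 was lower but followed the same order of genotypes, with 0.175 and 0.191 RPKM in WT and 0.892 and 0.940 RPKM in G93A (log2 fold changes 1.85 and 1.84). Their annotated starts lie 1343 bases apart on chromosome X.

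Col4a1 and Col4a2, the chains of almost every basement membrane including that of blood vessels, start 21 bases apart on chromosome 8. Col4a1 had 2.81 and 2.38 RPKM in WT and 2.83 and 2.27 RPKM in G93A (log2 fold changes between genotypes 0.01 and -0.06). Col4a2 had 3.86 and 3.25 RPKM in WT and 3.19 and 2.55 RPKM in G93A (-0.26 and -0.34). Neither reached 1.5-fold in any comparison. The pair Col4a3 and Col4a4, known from kidney and ear, stayed between 0.0501 and 0.0777 RPKM.

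Stretches before the start sites are shown for Col16a1 and Col5a3, whose level differed strongly between genotypes, and for the divergent pair Col4a5 and Col4a6, so that the genes can be compared in sequence as well as in level. Each runs from 250 to 51 bases before an annotated transcript start and comes from RefSeq on GRCm38.p6, at chr4:130047590-130047789 (plus strand) for Col16a1, chr9:20815118-20815317 (minus strand) for Col5a3, chrX:141475169-141475368 (plus strand) for Col4a5 and chrX:141474127-141474326 (minus strand) for Col4a6. Written 5′ to 3′ on the gene's own strand, capitals mark a CCAAT box or a GC box found on either strand.
Col16a1: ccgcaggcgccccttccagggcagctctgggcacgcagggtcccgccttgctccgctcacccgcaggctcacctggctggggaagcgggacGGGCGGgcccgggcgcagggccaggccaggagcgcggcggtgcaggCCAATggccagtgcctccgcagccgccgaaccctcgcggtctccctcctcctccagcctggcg
Col5a3: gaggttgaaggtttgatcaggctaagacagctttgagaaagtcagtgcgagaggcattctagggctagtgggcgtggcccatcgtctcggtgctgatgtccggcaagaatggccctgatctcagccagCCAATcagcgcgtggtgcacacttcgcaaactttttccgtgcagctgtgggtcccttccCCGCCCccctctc
Col4a5: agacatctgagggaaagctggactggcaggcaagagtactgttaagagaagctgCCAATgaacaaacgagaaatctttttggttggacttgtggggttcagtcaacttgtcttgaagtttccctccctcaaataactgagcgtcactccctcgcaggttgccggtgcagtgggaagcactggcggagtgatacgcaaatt
Col4a6: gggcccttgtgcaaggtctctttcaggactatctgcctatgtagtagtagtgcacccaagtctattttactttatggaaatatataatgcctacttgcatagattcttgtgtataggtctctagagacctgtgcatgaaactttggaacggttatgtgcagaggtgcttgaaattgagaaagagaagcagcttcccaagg

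These stretches were searched on both strands for 4 short motifs. The TATA box was read as the letters TATAAA. For the CCAAT box these letters themselves were searched. The GC box was read as the letters GGGCGG. The AP-1 site was read as the letters TGANTCA, with any base at N. No matches overlap in the sequences shown. Col16a1 and Col5a3 each held 1 CCAAT box and 1 GC box, Col4a5 held 1 CCAAT box, and Col4a6 held none of the motifs. Such a stretch could be read for 33 of the 41 collagen genes (36 windows). Over those windows the GC box was found in 47.2%, against 24.6% of 32851 windows of all genes, the CCAAT box in 27.8% against 28.4%, the TATA box in 11.1% against 9.14% and the AP-1 site in 2.78% against 5.57%. A match is a description of letters and not of a site in use. The base composition also differed among the sequences shown, from 42.5% G or C in Col4a6 to 77% in Col16a1.

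None of the 5 listed beaded filament genes (type VI and relatives) was called in the same direction in both genotype comparisons. Col6a1, a chain of the collagen VI found around many cells, had 1.58 and 1.3 RPKM in WT and 1.53 and 2.08 RPKM in G93A. It was called only under SD (log2 fold change 0.64), a call lost with median-ratio scaling (0.57) and with a pseudocount of 1 RPKM (0.42). Col6a2, its partner, had 0.664 and 1.05 RPKM in WT and 1.24 and 1.44 RPKM in G93A. Both G93A libraries were above both WT libraries, but it was called only under vehicle, with a log2 fold change of 0.81 against 0.42 under SD, and a pseudocount of 1 RPKM ended that call too (0.43). Col6a4, Col6a6 and Col28a1 had means of at most 0.0771 RPKM, and the call of Col6a4 in opposite directions (0.60 and -0.59) rests on between 10.4 and 33.6 estimated read pairs in a library.

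The multiplexins, which release the fragments endostatin and restin from the vessel wall, were close to 1 RPKM. Col15a1 was even across the libraries, with 0.971 and 1.03 RPKM in WT and 1.07 and 1.16 RPKM in G93A. Col18a1 had 0.987 and 0.581 RPKM in WT and 1.06 and 1.24 RPKM in G93A, and was called higher between genotypes only under SD (log2 fold change 0.97 against 0.09 under vehicle). The WT + SD library was the low one for this gene, while the other libraries lay within 0.987 and 1.24 RPKM. The short-chain network genes Col8a1, Col8a2 and Col10a1, known from vessels, the cornea and growing cartilage, had no call between genotypes, and Col7a1, the anchoring fibril gene of skin, ran from 0.0856 to 0.128 RPKM.

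Transmembrane collagens include the 1 gene that fell in both comparisons. Col25a1, which encodes the brain-specific collagen CLAC-P made by neurons, had 1.82 and 1.79 RPKM in WT and 1.16 and 0.988 RPKM in G93A. The WT libraries were close to each other, both G93A libraries were below them, and the level fell by 0.61 under vehicle and by 0.79 under SD on the log2 scale. Its 2 transcript rows differ in level but not in this order: one had 2.32 and 2.28 RPKM in WT and 1.44 and 1.34 RPKM in G93A, and the other had 1.32, 1.29, 0.877 and 0.635 RPKM in the same libraries. With a pseudocount of 1 RPKM Col25a1 was not called (-0.39 and -0.49). The motor neuron genes Slc5a7 and Prph, the choline transporter and peripherin, had 28.2 and 23.8 RPKM in WT vehicle, 28.2 and 21.1 in WT + SD, 21.9 and 20.3 in G93A vehicle and 16.1 and 14.8 in G93A + SD, and the part of fewer neurons in the level of Col25a1 was not tested.

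Col23a1, a transmembrane collagen shed from the cell surface, was called in the opposite direction to Col25a1 under SD. Its level was 4.38 and 4.17 RPKM in WT and 4.86 and 7.69 RPKM in G93A. The first 3 of these are close together, and the G93A + SD library stands above them, with a log2 fold change between genotypes of 0.15 under vehicle and 0.87 under SD. Col13a1 (0.0720 to 0.192 RPKM) was called higher only under SD (0.76), which rests on 8.71 against 23.5 estimated read pairs, and Col17a1 had at most 0.0378 RPKM.

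**Figure D3:**
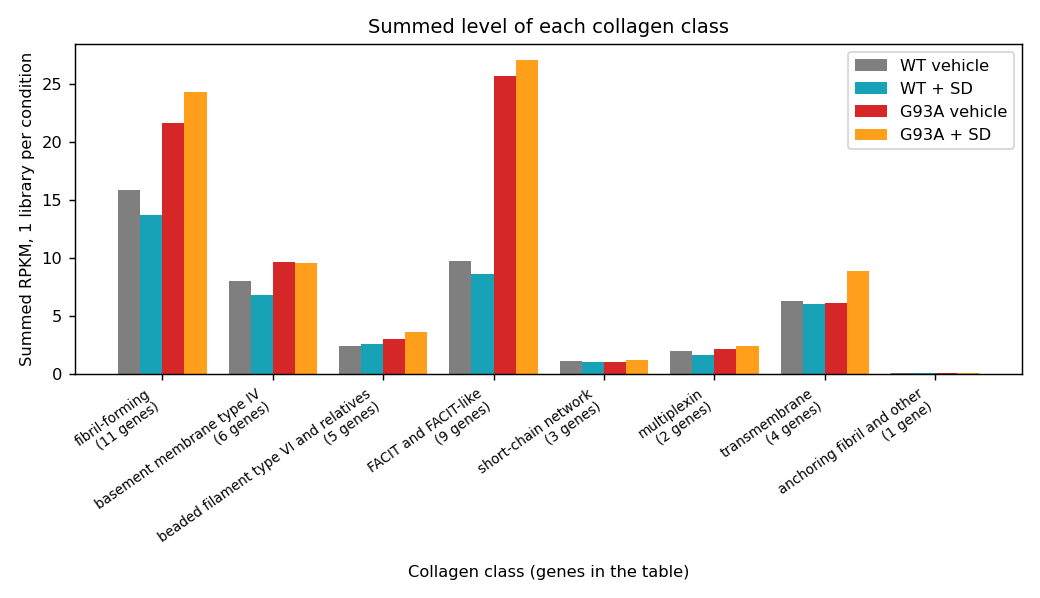
Summed RPKM of the genes of each collagen class (x axis, with the number of genes) in the 4 libraries, with 1 bar per library and no error bar because each condition has 1 library. The FACIT bars rise from 9.77 and 8.59 RPKM in the WT libraries to 25.7 and 27.1 RPKM in the G93A libraries, and the type IV bars lie between 6.81 and 9.66 RPKM.

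Summed by class, the FACIT genes had 9.77 and 8.59 RPKM in WT and 25.7 and 27.1 RPKM in G93A, so that they moved from below the fibril-forming class in WT to above it in G93A. The fibril-forming class had 15.8 and 13.7 RPKM in WT and 21.7 and 24.3 RPKM in G93A. Type IV genes summed to 8.03 and 6.81 RPKM in WT and 9.66 and 9.58 RPKM in G93A. Type VI and related genes summed to between 2.42 and 3.66 RPKM, and multiplexins to between 1.61 and 2.39 RPKM. The transmembrane sum was 6.32 and 6.04 RPKM in WT and 6.16 and 8.89 RPKM in G93A, of which Col23a1 gave 7.69 RPKM in the last.

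The comparison of SD with vehicle asks which collagen genes differ after SD within a genotype. These comparisons reuse the libraries of the genotype comparisons, but share none with each other. In WT, 1 gene was higher after SD (Col6a2), against 2.25% of all gene names, and 3 were lower (Col5a3, Col11a1 and Col18a1), against 2.8%. In G93A, 2 genes were higher after SD (Col11a1 and Col23a1), against 2.97% of all gene names, and 1 was lower (Col6a4), against 2.55%. No collagen gene was called in the same direction in both genotypes, where 0.38% of all gene names were higher in both and 0.53% lower in both. At 1 RPKM or more, 1 gene was higher and 2 lower after SD in WT, against 0.732% and 1.16% of all gene names at that level, and 2 were higher and 0 lower in G93A, against 1.24% and 0.932%. At 2-fold the count was 0 of 41 after SD in each direction and genotype, where 0.541% to 0.921% of all gene names reached it, so this count is near the background. For Col11a1, Col18a1, Col23a1 and Col6a4 the called SD changes were larger in size than the genotype difference under vehicle (0.29, 0.09, 0.15 and 0.60).

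The values of the genes called after SD lie close to the threshold. In WT the log2 fold change of Col11a1 was -0.68, that of Col18a1 -0.67, that of Col5a3 -0.65 and that of Col6a2 0.59. With median-ratio scaling Col6a2 was no longer called (0.58). In G93A the log2 fold change was 0.65 for Col23a1, 0.64 for Col11a1 and -0.69 for Col6a4. The value of Col6a4, the largest in size of these 7 calls, rests on an estimated 33.7 read pairs under vehicle and 10.4 after SD. With a pseudocount of 1 RPKM no collagen gene was called in either genotype. Col11a1 is the only collagen gene called in opposite directions, lower after SD in WT and higher after SD in G93A, and 127 of all gene names (0.68%) were called in opposite directions in the same way. For the 20 genes at 1 RPKM or more the median log2 fold change after SD was -0.14 in WT, with 16 genes below 0, and 0.16 in G93A, with 13 genes above 0. Over all gene names at that level the medians were 0.01 and 0.01. The WT + SD library is the lowest of the 4 for the collagen sum, and its low values of Col5a3, Col11a1 and Col18a1 enter both the SD comparison in WT and the genotype comparison under SD.

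**Figure D4:**
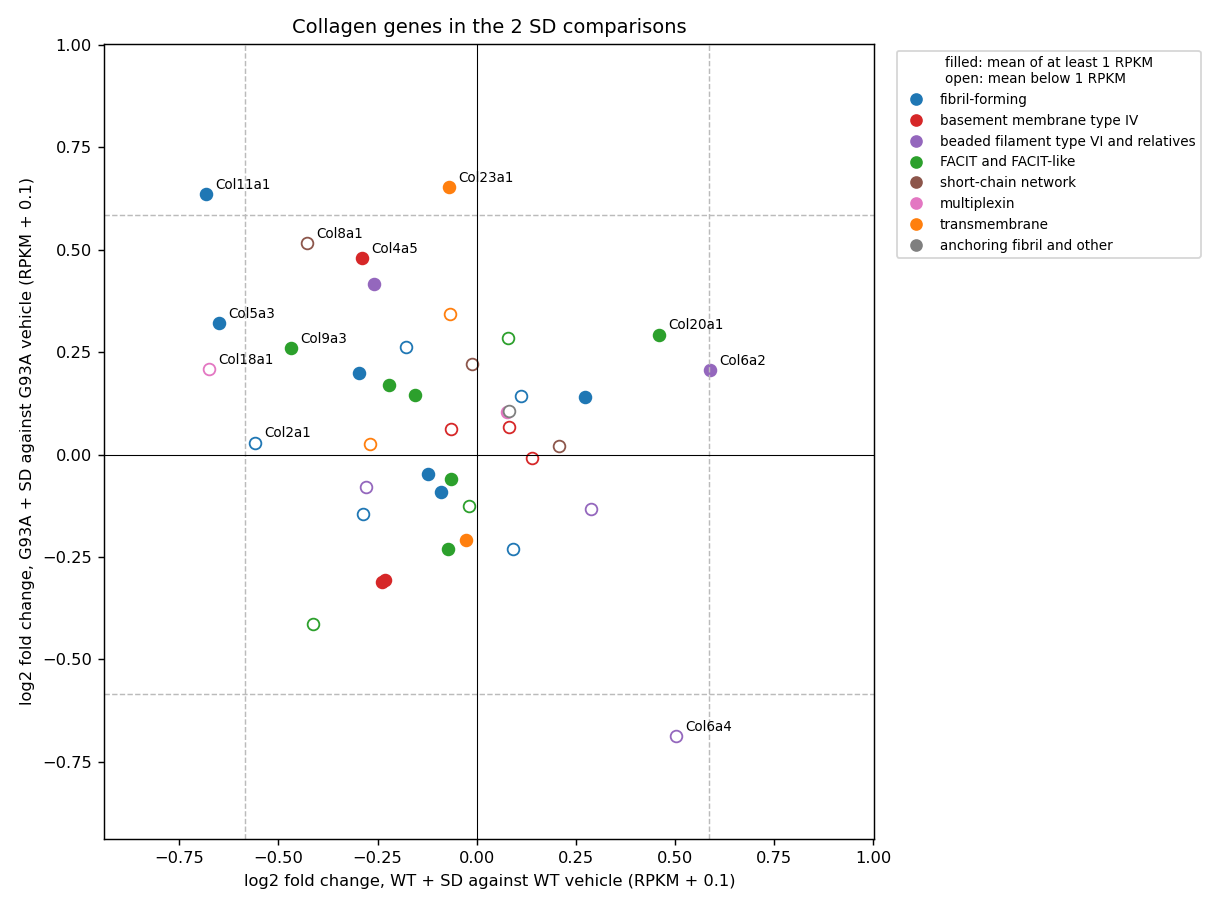
Log2 fold change of the 41 collagen genes after SD in WT (x axis) and in G93A (y axis), coloured by class, filled for a mean of at least 1 RPKM and open below it; dashed lines mark 1.5-fold. Most points lie inside the dashed lines, Col11a1 lies beyond both at the upper left (-0.68 and 0.64), and Col23a1 lies above the upper line (0.65 in G93A).

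Genes that act on collagen were taken from lists written for this purpose, each described by how many of its listed members were higher or lower in both genotype comparisons, where 11.6% of all gene names were higher in both and 2.98% lower. Of 16 genes for folding, modification and secretion in the endoplasmic reticulum, 10 were higher in both and 0 lower. Their median log2 fold change was 0.73 under vehicle and 0.78 under SD, where the median of all 18674 gene names was 0.05 and 0.05. P4ha3, a subunit of the prolyl hydroxylase that stabilises the triple helix, had 3.35 and 3.78 RPKM in WT and 18.3 and 24.1 RPKM in G93A. Serpinh1, the collagen chaperone HSP47, had 5.24 and 5.84 RPKM in WT and 15.5 and 17.3 RPKM in G93A. Both genes were well above the WT libraries in G93A, with log2 fold changes of 2.41 and 2.64 for P4ha3 and of 1.55 and 1.55 for Serpinh1. Fkbp10, a peptidyl-prolyl isomerase that acts on procollagen, rose by log2 1.81 and 2.02, Leprel1, a prolyl 3-hydroxylase, by 1.79 and 1.71, and Crtap, a partner of another prolyl 3-hydroxylase, by 1.05 and 1.21.

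The most abundant genes of this list have general roles as well and moved less. Ppib (cyclophilin B) had 55.2 and 56.3 RPKM in WT and 90.7 and 99.4 RPKM in G93A. P4hb (protein disulfide isomerase) had 57.5 and 55.4 RPKM in WT and 81.8 and 85.5 RPKM in G93A and was called only under SD (0.51 and 0.63). Among the hydroxylases and glycosyltransferases, Plod1 was not called (0.43 and 0.09), Glt25d1 was higher in both (0.73 and 0.74), and P4ha1 was higher in both (0.98 and 0.69). Plod2 (0.98 and 1.17) and Plod3 (0.73 and 0.96), relatives of Plod1, were higher in both. P4ha2, Lepre1 and Glt25d2 were not called, and Leprel2 was called only under SD.

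Of 13 genes for procollagen processing and crosslinking, 5 were higher in both comparisons and 1, Tll1, was lower. The median of the list was 0.55 under vehicle and 0.38 under SD. Lox, the lysyl oxidase that starts collagen crosslinks, had 0.0976 and 0.0653 RPKM in WT and 2.74 and 4.37 RPKM in G93A (log2 fold changes 3.84 and 4.76). Loxl2, a related oxidase, had 1.39 and 1.86 RPKM in WT and 7.51 and 10.6 RPKM in G93A (2.36 and 2.45). Bmp1, the protease that removes the C-terminal propeptide, had 4.34 and 4.49 RPKM in WT and 10.5 and 13.6 RPKM in G93A (1.26 and 1.57). These 3 genes were higher in both G93A libraries with no overlap, whereas the N-terminal proteinase Adamts2 was lower under SD (-0.83) and short of 1.5-fold under vehicle (-0.56). Loxl3 rose by log2 0.88 and 1.18, and Pcolce, an enhancer of the C-proteinase, by 0.87 and 1.21. Its relative Pcolce2 was not called (0.12 and -0.16). Tll1, a relative of Bmp1, had 0.756 and 0.827 RPKM in WT and 0.444 and 0.372 RPKM in G93A.

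**Figure D5:**
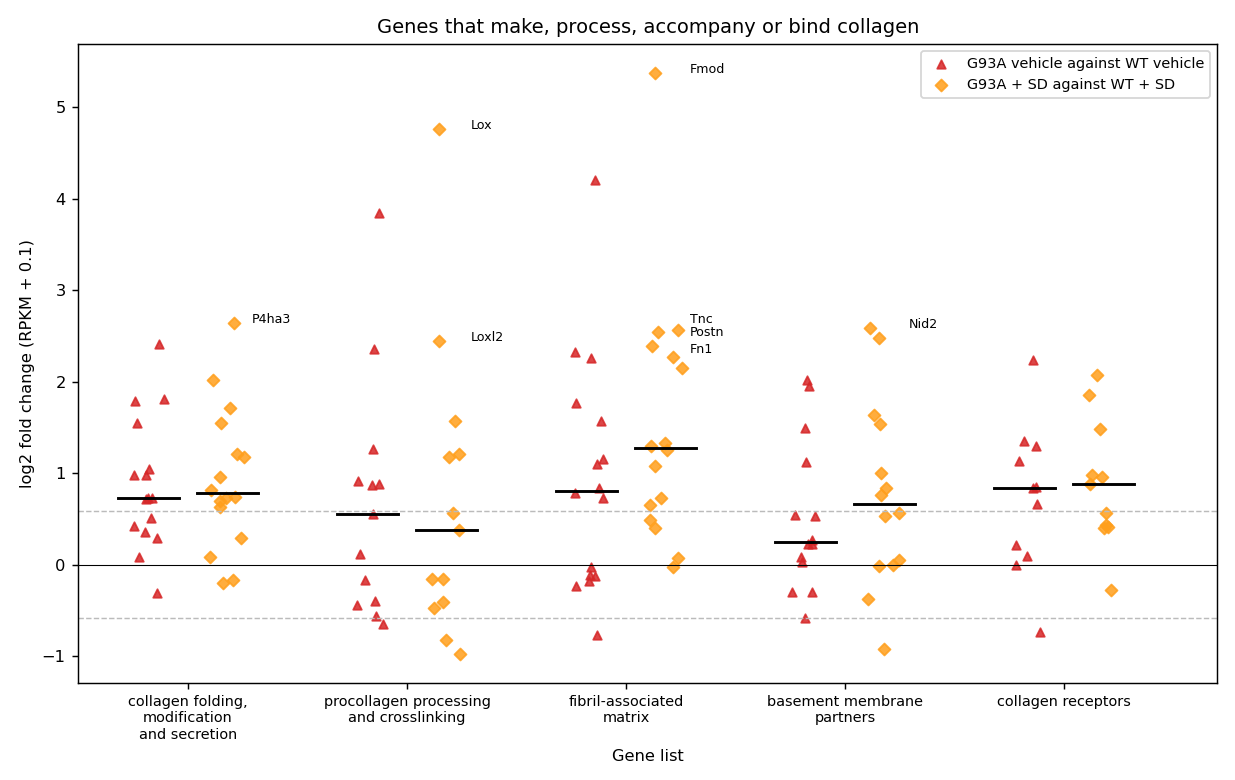
Log2 fold change of each gene of 5 lists of collagen partners (x axis) in G93A vehicle against WT vehicle (red triangles) and in G93A + SD against WT + SD (orange diamonds), with a black line at each list's median and dashed lines at 1.5-fold. Fmod (4.21 and 5.37) and Lox (3.84 and 4.76) stand highest, and the median of the basement membrane partners under vehicle (0.24) is the lowest of the lists.

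Of 16 matrix genes that associate with fibrils, 10 were higher in both comparisons and 0 lower, with a median of 0.81 under vehicle and 1.27 under SD. Fmod, the small proteoglycan fibromodulin that binds collagen I, had 2.27 and 1.48 RPKM in WT and 43.7 and 65.4 RPKM in G93A. Sparc, a collagen-binding protein made in the cord by glia, was the most abundant gene of the partner lists, with 458.6 and 409 RPKM in WT and 816.5 and 1027 RPKM in G93A (log2 fold changes 0.83 and 1.33). Tnc (tenascin C), Thbs2 and Thbs1 (thrombospondins), Fn1 (fibronectin) and Postn (periostin) all rose at least 2-fold in both comparisons. Thbs2 had 4.35 and 7.42 RPKM in WT and 21.1 and 36.2 RPKM in G93A, and was also higher after SD in both genotypes (0.76 and 0.78). Fn1 had 5.01 and 4.90 RPKM in WT and 15.1 and 26.1 RPKM in G93A. Tnc had log2 fold changes of 2.32 and 2.56, Postn of 1.77 and 2.54, and Thbs1 of 1.16 and 2.15, while Bgn (biglycan) had 0.78 and 1.29. The proteoglycan genes Dcn, Lum and Ogn, which fibroblasts make, were not called under vehicle (-0.03, -0.23 and -0.13). Under SD, Lum and Ogn were called higher in G93A (0.73 and 1.08) and Dcn was not (0.49), and in G93A all 3 were higher after SD (0.85 for Dcn, 0.77 for Lum and 0.75 for Ogn). They are among 6 of the 16 genes of this list called higher after SD in G93A, with Fn1 (0.79), Thbs2 (0.78) and Mfap4 (0.60), against 2.97% of all gene names, and all 16 log2 fold changes were above 0. The fibrillin gene Fbn1 was not called (-0.11 and 0.40).

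Of 14 basement membrane partners of type IV collagen, 4 were higher in both and 0 lower, with a median of 0.24 under vehicle and 0.66 under SD. Nid2, a nidogen that links laminin and collagen IV, had 0.554 and 0.517 RPKM in WT and 2.55 and 3.59 RPKM in G93A. Its relative Nid1 had 6.33 and 7.82 RPKM in WT and 4.20 and 4.07 RPKM in G93A, so that the log2 fold changes of the nidogens had opposite signs (log2 fold changes 2.02 and 2.58 for Nid2, and -0.58 and -0.92 for Nid1, which was called only under SD). Among the laminin chains Lamb2 (1.12 and 1.54) and Lama3 (1.95 and 1.64) were higher in both. Lamc1 was called only under SD (0.54 and 0.76), Lama2 was not called (0.08 and 0.53), and the most abundant gene of the list, Agrn (agrin), was nearly level at 15.5 and 14.5 RPKM in WT and 15.8 and 15.0 RPKM in G93A.

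Of 11 collagen receptor genes, 6 were higher in both and 0 lower, with a median of 0.83 under vehicle and 0.88 under SD. Ddr2, a receptor tyrosine kinase for fibrillar collagen, had 0.742 and 0.632 RPKM in WT and 1.97 and 1.94 RPKM in G93A. Its relative Ddr1, made by oligodendrocytes and epithelia, had 31.7 and 30.0 RPKM in WT and 57.3 and 58.4 RPKM in G93A. The G93A libraries of both receptors were close to each other and above the WT libraries. Itga2, the chain of a collagen-binding integrin, rose by log2 2.24 and 2.07 from a low level, its partner Itgb1 by 0.83 and 0.88, and the inhibitory leukocyte receptor Lair1 by 1.35 and 1.86. Gpr56, a receptor for collagen III in the brain, was not called (0.22 and 0.39).

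Cell type markers were measured in the same libraries, and their part in the collagen results was not tested. The 7 markers of fibroblasts and meninges summed to 5.17 and 4.36 RPKM in WT and 4.99 and 6.40 RPKM in G93A, with 0 of 7 higher in both genotype comparisons. Slc22a6 was listed at 0 in a G93A library and was at most 0.0130 RPKM in the others, and the most abundant of these markers, Igf2 and Aldh1a2, were at 1.86 to 2.81 and 1.01 to 1.14 RPKM. Lum and Ogn belong both to these markers and to the list of matrix genes that associate with fibrils. Both were called higher in G93A under SD only (log2 fold changes 0.73 and 1.08), and Slc6a13 under vehicle only (0.64). Endothelial markers were at 53.7 and 52.0 RPKM in the WT libraries and at 49.2 and 40.7 in the G93A libraries, with 0 of 7 higher, and their leading genes were Slco1a4 (15.9 to 19.5 RPKM) and Cldn5 (6.55 to 12.4 RPKM). Pericyte markers were at 45.7 and 44.1 RPKM in WT and at 51.2 and 44.7 in G93A, with 2 of 6 higher (Kcnj8 and Anpep), and were led by Rgs5 (19.5 to 22.7 RPKM) and Vtn (14.4 to 17.7 RPKM). Smooth muscle markers summed to 10 and 12.1 RPKM in WT and to 25.0 and 31.3 in G93A. Of these, 2 of 5 genes were higher in both, Tagln (2.48 and 4.01 RPKM in WT, 14.0 and 19.4 in G93A) and Myl9 (5.04 and 6.01 in WT, 8.37 and 9.57 in G93A), while the defining contractile gene Myh11 was at 0.415 to 0.725 RPKM with its G93A values the lower ones.

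The 6 microglial markers summed to 41.1 and 37.1 RPKM in the WT libraries and to 367.1 and 361.6 in the G93A libraries, with 6 of 6 higher in both comparisons, and were led by Tyrobp and Cd68 (139.3 and 85.2 RPKM in G93A vehicle). The 6 astrocyte markers summed to 987.4 and 926.9 RPKM in WT and to 3395 and 4168 in G93A, with 4 of 6 higher, and were led by Gfap and Vim or Slc1a2 (2269, 379.4 and 215.5 RPKM in G93A vehicle). Motor neuron markers summed to 79.2 and 71.9 RPKM in WT and to 60.3 and 44.2 in G93A, with 2 of 6 lower in both (Slc18a3 and Mnx1). The 3 listed neuronal markers, led by Snap25 and Stmn2, summed to 1528 and 1548 RPKM in WT and to 981.2 and 850.1 in G93A, with 1 of 3 lower in both (Snap25, -0.70 and -0.97). Oligodendrocyte markers summed to 3751 and 4037 RPKM in WT and to 3091 and 2684 in G93A, with 0 of 4 higher or lower in both. Among the microglial, astrocyte, neuronal and oligodendrocyte lists, the microglial and astrocyte sums were the ones above WT in G93A. The smooth muscle sum and the sum of Schwann cell and nerve root markers were also above WT in both G93A libraries.

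Tissues next to the cord were checked because they are rich in collagen. Schwann cell and nerve root markers summed to 6.80 and 7.46 RPKM in WT and to 11.7 and 13.5 in G93A, with 3 of 6 higher in both, mostly through Drp2 (6.16 to 10.3 RPKM) and Egr2 (0.0829 to 1.68 RPKM). Skeletal muscle markers stayed between 0.859 and 1.05 RPKM in sum, led by Mylpf and Acta1, with Myh4 or Tnnt3 listed at 0 in a WT library. Cartilage and bone markers summed to 4.50 and 4.38 RPKM in WT and to 3.07 and 2.59 in G93A, led by Acan (1.61 to 3.93 RPKM) and Chad (0.246 to 0.437 RPKM), with 1 of 6 lower in both (Acan) and 1 higher in both. The higher one, Bglap, was listed at 0 in both WT libraries and had 0.150 and 0.488 RPKM in G93A.

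Some of the collagen genes share exonic bases with other genes, and since nothing states that strand was used in counting, reads in these bases cannot be assigned with certainty. Of the genes higher in both comparisons, Col5a1 shares 212 of 8406 exonic bases with antisense genes, Col9a3 shares 230 of 2846 with Tcfl5 on the other strand, and Col20a1 shares 79 of 5012 with a gene on its own strand. For the others with a matched transcript (Col1a1, Col1a2, Col4a5, Col4a6, Col5a3 and Col16a1) no shared exonic base was found, and Col12a1 could not be checked. Collagens listed under older symbols do not meet the naming rule. Of these, Emid2, now Col26a1, had 0.637 and 0.757 RPKM in WT and 0.510 and 0.312 RPKM in G93A, and Gm7455, now Col6a5, was at most 0.0529 RPKM. Col6a3 and Col21a1 are not analysed here.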

How the data were processed

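RNA of the lumbar spinal cord was sequenced in 4 libraries, which were grouped by the genotype and treatment in the sample labels. According to the submitters' processing notes, reads were aligned with STAR to GRCm38 (mm10). The methods describe polyA selection, 53-base reads and HTSeq on an Ensembl gene set, while the deposited table lists RefSeq transcripts and names no unit. The values the authors deposited were read as RPKM, since their products with transcript length add up to much the same total for each library. Ratio columns of the authors' own comparisons, also deposited, were not used. Lengths came from GENCODE M21 for 23026 rows (97.0%). The most frequent low product of value and length was taken as a single read pair. The read pairs per library are estimates from it, so no counting interval was derived.

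The 4 comparisons used log2(RPKM + 0.1) of the mean of a name's rows, and names at least 1.5-fold apart were counted. With 1 library per condition no test was made, and leaving out a replicate was not possible. The collagen genes, the lists and the rule for named genes were chosen with earlier results of these data known. Named are all collagen genes at a mean of 1 RPKM or more, those below it called in the same direction in both genotype comparisons, from each partner list the 5 with the highest mean and any at least 2-fold apart in the same direction in both, and 2 leading genes per marker list; others are named where a count holds 5 or fewer or a relative is compared, after their values were seen. Some genes of the partner and marker lists are not reported here by name, but count in the totals of their lists. Alternatives were no pseudocount, a pseudocount of 1 RPKM, a mean of at least 1 RPKM, median-ratio scaling, a 2-fold threshold and the highest row of a name, and, added after seeing the data, a minimum of 20 estimated read pairs. The software was numpy 2.4.6 and pandas 2.3.3 on Python 3.11.15, with figures by matplotlib 3.10.9. The calls were also run on simulated data with set folds and no added noise. Such a run checks the calculation and cannot tell how far libraries vary.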

Additional observations from a re-analysis of the deposited data

Results flagged for a closer look

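Col11a1 moved in opposite directions after SD in the genotypes. Its log2 fold change was -0.68 after SD in WT and 0.64 after SD in G93A, each from 1 library against 1 library. The difference between the genotypes was not tested. Its levels were 2.70 and 1.64 RPKM in WT and 3.32 and 5.22 RPKM in G93A, and both calls were lost with a pseudocount of 1 RPKM (-0.48 and 0.52).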

How the results depend on the processing

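No paired analysis was possible because each condition has 1 library. Of 352 values of single collagen genes under the alternatives, 333 kept their side of 1.5-fold, 17 fell short of it, 2 passed it, and no called value turned its sign. The uncalled value of Col4a1 under vehicle turned from 0.01 to -0.05 with median-ratio scaling. Without a pseudocount, the collagen genes lower in G93A vehicle numbered 4, those after SD in WT 3 higher and 7 lower, and those higher after SD in G93A 4, where the shares of all gene names also rose, to 10.3%, 7.18%, 8.55% and 8.71%. With a pseudocount of 1 RPKM, 0 genes were lower in G93A vehicle, 10 were higher and 0 lower in G93A + SD (10.4% and 4.19% of all gene names), the medians of the genes at 1 RPKM or more were 0.27 under vehicle and 0.50 under SD, and after SD 0 genes were higher and 0 lower in WT, and 0 higher and 0 lower in G93A. With only genes at 1 RPKM or more, fewer genes were considered, and 11 were higher and 2 lower in G93A + SD against WT + SD, with 0 lower after SD in G93A. With median-ratio scaling 2 genes were lower in G93A vehicle and 0 higher after SD in WT. At 2-fold, 7 genes were higher and 0 lower in G93A vehicle, 10 were higher and 0 lower in G93A + SD, and after SD 0 were higher and 0 lower in WT, and 0 higher and 0 lower in G93A. The shares of all gene names at 2-fold were 7.34% higher and 1.11% lower under vehicle, 9.27% and 1.80% under SD, and 0.541% to 0.921% after SD. Each count stayed within 1.5 times the value in the report with the highest row of a name. So it did with a minimum of 20 estimated read pairs, an alternative chosen after seeing the data, which left 35 collagen genes and dropped Col12a1 for want of a length. The cause of the shifts other than by fewer genes or a higher threshold was not tested. Depth limits most Col10a1, Col17a1, Col28a1 and Col13a1, with means of 2.80, 4.53, 8.07 and 14.3 estimated read pairs.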
